A study of Mus musculus with 8 samples.

Results

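Chemokine ligand genes were described in sorted mouse skin tumour cells in which the nuclear receptor NR2F2 had been gained or lost. A gene was a member when its single symbol in the platform annotation began with Ccl, Cxcl, Xcl or Cx3cl followed by a digit. This gave 34 members, read by 49 probe sets, among 17097 genes with a single-gene probe set on the array. A probe set is the group of probes whose signals are summarised into 1 value for a transcript. Where a gene had several, which was so for 11 members, the probe set with the highest mean over all 8 arrays stood for it.

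The arrays were Affymetrix mouse genome arrays hybridised with RNA of Epcam-positive cells isolated by flow cytometry, Epcam being an epithelial surface protein. The 4 groups of 2 arrays were GOF papilloma (genotype NR2F2 GOF, papillomas that overexpress NR2F2), control papilloma (NR2F2 WT), LOF carcinoma (NR2F2 KO, squamous cell carcinomas of K5CreER;NR2F2fl/fl skin) and control carcinoma (NR2F2 WT, without Cre). In the LOF mice the keratin 5 promoter drives the CreER recombinase, so deletion is aimed at basal epithelial cells. The labels give neither the promoter that drives the overexpression, nor the ages, nor whether a separate animal lies behind each array, so a p-value here covers the spread between arrays. The 2 arrays of each group differed in the Y-linked gene Eif2s3y (6.85 and 2.55 in GOF papilloma, 2.56 and 6.66 in control papilloma, 8.62 and 4.0 in LOF carcinoma, 3.79 and 7.45 in control carcinoma). Xist, the X-inactivation transcript, ran the other way in every group, so the arrays of a group did not hold the same RNA and differed in sex-linked transcripts. The questions were which chemokine ligands differed with the gain of NR2F2 in a benign tumour, and which with its loss in a malignant one.

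Chemokines are small secreted proteins that guide cells along a concentration gradient by binding G protein-coupled receptors on their surface. They are named CC, CXC, XC or CX3C after the spacing of cysteines near the amino terminus, and most are classed as inflammatory, induced during injury and infection, or homeostatic, made constantly to place cells in tissues. In skin, keratinocytes make some of them, such as Ccl27 and Cxcl14, while resident and infiltrating immune, endothelial and stromal cells make others.

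Values are log2 expression from the RMA algorithm as deposited, and the papilloma and carcinoma arrays differed in scale, with array medians of 3.12 to 3.16 and 5.08 to 5.15. No level was therefore compared between the tumour types. Each array's background was set by the brightest of 44 control probe sets that match no mouse sequence, 3.09 to 3.33 on papilloma and 4.95 to 5.01 on carcinoma arrays. A member counted as above background in a comparison when both arrays of at least 1 of its groups exceeded their own background. Nr2f2 followed the labels, at 11.43 and 11.47 on the GOF arrays against 2.80 and 2.55 on control papilloma arrays, and at 4.77 and 5.0 on the LOF arrays against 7.93 and 8.14 on control carcinoma arrays.

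The sort did not leave epithelial transcripts alone, and the marker lists of other cells differed between arrays. All 7 keratinocyte markers lay above background on every array. The mean over 12 macrophage and monocyte markers was 5.37 and 6.51 on the GOF arrays and 3.26 and 3.19 on control papilloma arrays, with all 12 above background on both GOF arrays and 6 and 8 of them on the controls. Of these, 2 rose in GOF papilloma (limma adjusted p, Lyz2 and C1qc). The mean over 8 endothelial markers was 5.42 and 5.62 on the GOF arrays and 3.47 and 3.27 on their controls, and 4 of them rose. The mean over 7 Langerhans and dendritic cell markers was 6.26 and 6.72 on the GOF arrays and 4.48 and 4.72 on their controls, with 3 class II genes rising. In that list Cd74 differed by 3.06 and Cd207 by 0.82. Itgax and Flt3 did not exceed background on both arrays of either papilloma group. The higher mean thus rests mainly on class II genes and Cd74. The mean over 7 fibroblast markers was 7.07 and 7.40 on the GOF arrays and 6.97 and 5.92 on their controls. That over 5 neutrophil markers was 6.10 and 6.42 against 5.98 and 5.35. The largest differences in the neutrophil list were those of S100a8 and S100a9 (0.95 and 1.27). Cxcr2 differed by 0.03, and Csf3r and Mmp8 did not exceed background on both arrays of either papilloma group. The list thus rests on few genes.

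Control carcinoma replicate 2 stood apart from the other 3 carcinoma arrays on these lists. Its macrophage mean was 6.88, while LOF replicates stood at 5.15 and 5.45 and control replicate 1 at 5.29. Its endothelial mean was 6.09, with 5.06 and 5.13 on the LOF arrays and 5.16 on the other control. Its fibroblast mean was 7.42, with 5.77 and 6.35 on the LOF arrays and 6.20 on the other control. Of 7 T and NK cell genes measured, Thy1 alone was above background on both arrays of any group. The T cell genes Cd3e and Cd3g exceeded background on no array, and Cd3d did so on control carcinoma replicate 2 alone. In such bulk samples, fewer cells of a type and less RNA per cell cannot be told apart, and the part of these lists in the chemokine results was not tested.

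**Figure D1:**
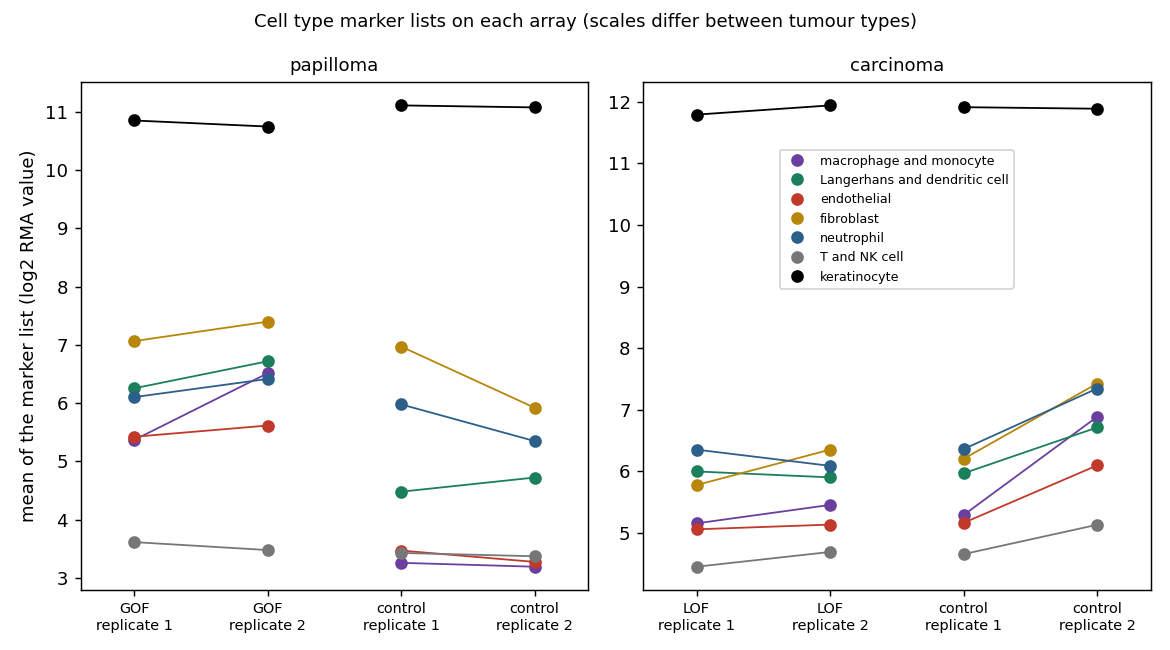
Mean log2 value (vertical axis) of 7 cell type marker lists on each array (horizontal axis), papilloma arrays on the left and carcinoma arrays on the right, with lines joining the 2 arrays of a group. The macrophage mean stands at 5.37 and 6.51 in GOF papilloma against 3.26 and 3.19 in its controls, and control carcinoma replicate 2 is the highest carcinoma array on 6 lists, keratinocyte markers being the exception.

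Gain of NR2F2 in papilloma went with a rise of the lymphoid chemokines Cxcl13 and Ccl21b and a fall of Ccl27a and Cx3cl1, chemokines that epithelial cells can make. Of 30 members tested, these 4 passed limma's adjusted threshold of 0.05, 2 higher and 2 lower, where 1.53% of the 12061 genes tested passed (0.962% higher and 0.564% lower). A gene was tested when at least 2 of the 8 arrays exceeded their background, so a member could enter through the group in which it was high. Over all 34 members without that filter, 6 were at least 1.5-fold higher in all 4 array pairs (17.6%, against 3.21% of all 17097 genes) and 5 at least 1.5-fold lower (14.7%, against 1.81%). The median log2 fold change was 0.06 over the 34 members and 0.01 over all genes, so the members spread in both directions. Above background in papilloma stood 25 members. Groups did not overlap for 24 of the 34 members (70.6%, against 46.3% of all genes). The sorting marker Epcam itself fell, to 9.0 and 8.68 on the GOF arrays, against 10.17 and 10.57 on control papilloma arrays (limma adjusted p = 0.0348).

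Cxcl13, which draws B cells through the receptor CXCR5, stood at 6.80 and 6.75 on the GOF arrays, against 3.72 and 3.39 on control papilloma arrays. Both GOF arrays were thus well above both controls, which lay just above background. Means were 6.77 ± 0.03 in GOF and 3.55 ± 0.23 in control papilloma (SD, n = 2 each). Expression was 9.31-fold higher with GOF (log2 difference 3.22, SE 0.26, adjusted p = 0.0102 by limma). The second, dimmer Cxcl13 probe set differed by 0.36.

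Ccl21b, a ligand of CCR7 that guides T cells and dendritic cells to lymph nodes and is made by lymphatic endothelium, stood at 6.09 and 5.40 on the GOF arrays, against 3.29 and 3.51 on control papilloma arrays. The groups did not overlap, and the controls again lay close to background. Means were 5.74 ± 0.49 in GOF and 3.4 ± 0.16 in control papilloma (SD, n = 2 each). Expression was 5.08-fold higher with GOF (log2 difference 2.34, SE 0.35, adjusted p = 0.0362 by limma). The mouse genome holds several near-identical Ccl21 genes, and a probe set of this kind may read any of them, so the value is that of the copies together.

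Ccl27a, the keratinocyte chemokine that draws T cells to skin through CCR10, stood at 6.39 and 6.55 on the GOF arrays, against 9.37 and 9.31 on control papilloma arrays. Each group was tight and the GOF arrays were far below the controls. Means were 6.47 ± 0.11 in GOF and 9.34 ± 0.04 in control papilloma (SD, n = 2 each). Expression was 7.31-fold lower with GOF (log2 difference -2.87, SE 0.39, adjusted p = 0.0301 by limma). The other 3 Ccl27a probe sets differed by -0.99, -0.43 and -0.19, and the similar gene Ccl27b may share the signal of the brightest.

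Cx3cl1, or fractalkine, is tethered to the cell surface and binds the receptor CX3CR1 of monocytes and NK cells. It stood at 6.44 and 6.52 on the GOF arrays, against 7.79 and 7.40 on control papilloma arrays, again without overlap. Means were 6.48 ± 0.06 in GOF and 7.59 ± 0.27 in control papilloma (SD, n = 2 each). This 2.16-fold lower level (log2 fold change -1.11, SE 0.17, limma adjusted p = 0.0362) compares with -0.32 for the second, dimmer probe set.

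Most of the calls needed both arrays of each papilloma group. Leaving out any papilloma array left 1 array in its group, and most or all of the ligand calls were lost. Calls over all genes fell as well, so the loss cannot be told apart from lower precision with fewer arrays. With single arrays left out, each log2 fold change kept its sign. They ran from 3.05 to 3.38 for Cxcl13, 2.00 to 2.69 for Ccl21b, -2.95 to -2.79 for Ccl27a and -1.31 to -0.92 for Cx3cl1. Without either LOF carcinoma array, which enter only through the shared spread, Ccl21b and Cx3cl1 missed the threshold (limma adjusted p = 0.0632 and 0.0656) and Cxcl14 passed it. With the 4 papilloma arrays alone Cx3cl1 missed it (adjusted p = 0.0707) and Cxcl14 passed (0.0208). Without GOF replicate 1 the values were 3.20 for Cxcl13, 2.00 for Ccl21b, -2.79 for Ccl27a and -1.07 for Cx3cl1.

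The promoters of 3 of these genes are shown because their transcripts moved past the threshold, Cxcl13 in one direction and Ccl27a and Cx3cl1 in the other. That of Ccl21b, which held neither motif searched, is not shown because its signal cannot be assigned to one gene copy. The Ccl27a window has a like limit, as Ccl27b may share the signal of its brightest probe set. Which Ccl27a start the signal came from was not measured. Each covers 250 bases before to 50 bases after the gene's start on its own strand, from RefSeq (GRCm38.p6), in lower case. Capitals mark AGGTCA, the half-site that nuclear receptors of this class bind as repeats, or its reverse complement TGACCT. They also mark TATAAA, the letters of a TATA box, at any position in the window. Both motifs were searched on both strands. The Cxcl13 window is chr5:95956689-95956988 (plus strand), that of Ccl27a chr4:41774127-41774426 (minus strand, the first of 3 listed starts) and that of Cx3cl1 chr8:94771930-94772229 (plus strand).
Cxcl13: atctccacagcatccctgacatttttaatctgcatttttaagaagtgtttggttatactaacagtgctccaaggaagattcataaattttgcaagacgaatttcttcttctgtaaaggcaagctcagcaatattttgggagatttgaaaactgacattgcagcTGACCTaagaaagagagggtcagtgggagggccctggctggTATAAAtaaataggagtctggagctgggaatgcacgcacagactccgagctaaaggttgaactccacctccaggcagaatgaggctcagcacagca
Ccl27a: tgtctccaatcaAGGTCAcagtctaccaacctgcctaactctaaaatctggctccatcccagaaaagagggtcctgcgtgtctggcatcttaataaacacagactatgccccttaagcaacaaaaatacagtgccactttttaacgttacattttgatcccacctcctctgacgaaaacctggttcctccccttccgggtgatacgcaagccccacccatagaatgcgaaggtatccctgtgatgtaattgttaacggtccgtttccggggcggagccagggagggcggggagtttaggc
Cx3cl1: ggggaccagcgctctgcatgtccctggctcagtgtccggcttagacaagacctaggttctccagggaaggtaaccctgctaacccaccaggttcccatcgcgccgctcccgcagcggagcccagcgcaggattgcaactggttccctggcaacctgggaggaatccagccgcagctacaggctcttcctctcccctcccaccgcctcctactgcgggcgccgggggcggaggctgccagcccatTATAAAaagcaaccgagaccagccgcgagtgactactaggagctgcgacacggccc
AGGTCA was present on either strand in 16.3% of 32851 mouse promoters of this length and TATAAA in 13.6%. Of 24 members with a listed promoter, 10 held the half-site and 8 the letters TATAAA at any listed start, and 9 and 7 at the first. Cxcl13 held the half-site 87 bases before the start and Ccl27a 238 bases before its first start but at neither of its other starts, while these letters were not in the Cx3cl1 window. TATAAA began 46 bases before the start in Cxcl13 and 6 bases before it in Cx3cl1. A match describes letters in a window and no binding, and its position was not part of the search.

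Among the other CXC ligands, Cxcl14, a keratinocyte product with few known receptors, came close to the threshold. It stood at 7.73 and 7.98 on the GOF arrays, against 9.82 and 10.02 on control papilloma arrays, so the groups lay far apart. It differed by -2.07 (SE 0.38, limma adjusted p = 0.0563), and the second probe set, at -2.02, gave nearly the same difference. The value passed under 8 alternatives, among them the mean of probe sets (-2.04, adjusted p = 0.0326).

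Cxcl16, a membrane-bound ligand of CXCR6, stood at 9.58 and 9.70 on the GOF arrays and 9.50 and 9.98 on the controls, with overlap. Cxcl12, the stromal ligand of CXCR4, stood at 3.79 and 4.01 on the GOF arrays and 4.04 and 5.16 on the controls (-0.70, limma adjusted p = 0.544). Its dimmer probe sets differed by 0.02 and -0.06.

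The ligands of CXCR3, the receptor of activated T cells, are induced by interferons, and both that were well above background had lower values on the GOF arrays. Cxcl10 stood at 5.67 and 6.49 on the GOF arrays, against 7.17 and 8.37 on control papilloma arrays. Cxcl9 stood at 4.58 and 4.77 on the GOF arrays, against 6.08 and 7.67 on the controls. Neither pair of groups overlapped, but the spread in the shared fit was wide, and neither passed (-1.68, SE 0.87, adjusted p = 0.372, and -2.20, SE 1.30, adjusted p = 0.437). Cxcl11, the third, lay near background in both groups, at 2.91 and 3.31 on the GOF arrays and 3.28 and 3.36 on the controls.

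Ligands that attract monocytes and macrophages had positive log2 fold changes in GOF papilloma without passing. Ccl5, made by T cells and macrophages among others, stood at 4.22 and 4.44 on the GOF arrays, against 3.27 and 3.37 on the controls (1.01, SE 0.21, limma adjusted p = 0.0740). Ccl3, a macrophage product, stood at 4.05 and 5.05 on the GOF arrays, against 2.63 and 2.84 on the controls, where it was at background, a difference of at least 2.69-fold (adjusted p = 0.311). Its neighbour Ccl4 was likewise at background in the controls, at 3.55 and 3.89 on the GOF arrays against 2.85 and 2.94, at least 1.51-fold (adjusted p = 0.338). The mouse myeloid chemokines Ccl6 and Ccl9 differed by 0.77 and 0.70.

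Of the CCR2 ligands and their relatives, Ccl8, a monocyte chemoattractant, stood at 6.80 and 8.03 on the GOF arrays, against 5.10 and 6.07 on control papilloma arrays. The groups did not overlap, but both were spread (1.83, SE 0.48, limma adjusted p = 0.115). Ccl2, the main ligand of CCR2, stood at 5.82 and 5.17 on the GOF arrays and 4.49 and 5.12 on the controls, the nearest arrays being nearly level. Ccl8, Ccl3, Ccl4, Ccl5 and Ccl9 were higher on GOF replicate 2 than on GOF replicate 1. Ccl6, Ccl2 and Ccl21b were higher on GOF replicate 1. Of the marker lists, the macrophage, dendritic cell, endothelial, fibroblast and neutrophil means were higher on GOF replicate 2. The T and NK cell and keratinocyte means were higher on GOF replicate 1. A link between ligands and lists was not tested.

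The neutrophil attractants, which bind CXCR2, differed little in papilloma. Cxcl1 stood at 10.17 and 10.09 on the GOF arrays and 9.97 and 10.07 on control papilloma arrays, a log2 fold change of 0.11 (SE 0.31, adjusted p = 0.911). Cxcl2 stood at 11.19 and 11.32 on the GOF arrays and 10.99 and 10.99 on the controls, 0.26 (SE 0.28, adjusted p = 0.706). The differences were smaller than their standard errors, and Cxcl5 and Cxcl15 did not reach background on both arrays of any papilloma group.

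Remaining ligands showed small differences. Ccl20, the epithelial ligand of CCR6, stood at 4.73 and 4.83 on the GOF arrays and 4.90 and 5.11 on the controls. The eotaxin Ccl11 was at background on the GOF arrays, at 3.05 and 2.90, against 3.78 and 3.54 on the controls, at least 1.35-fold lower (limma adjusted p = 0.0874). It passed with a trended and robust variance prior (adjusted p = 0.0443). Ccl17, Ccl24 and Ccl25 differed by 0.07, 0.06 and 0.30.

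**Figure D2:**
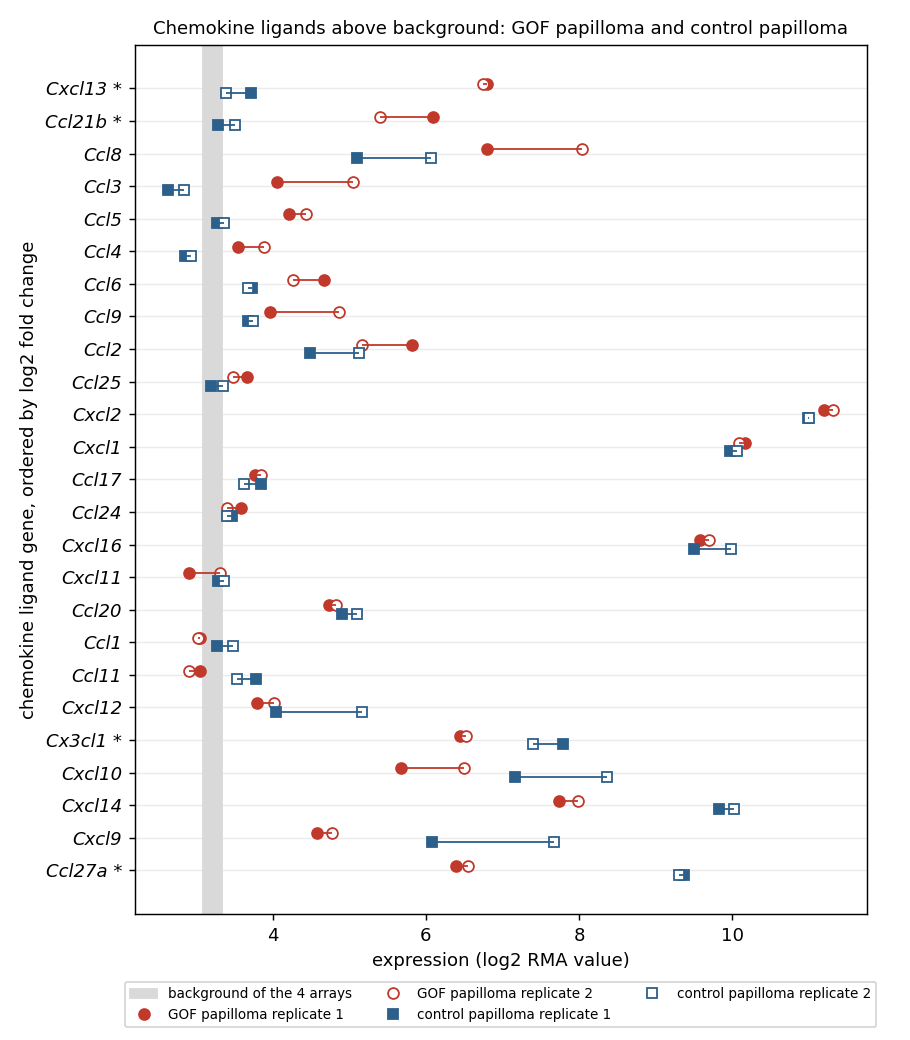
Log2 RMA values (horizontal axis) of the 25 members above background in papilloma, ordered by log2 fold change, with circles for GOF arrays, squares for control arrays, filled for replicate 1 and open for replicate 2; asterisks mark the 4 members past the threshold and the grey band spans the background of the arrays. Cxcl13 stands at 6.80 and 6.75 in GOF papilloma against 3.72 and 3.39 in its controls, and Ccl27a at 6.39 and 6.55 against 9.37 and 9.31.

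Of 18 chemokine receptor genes measured, 6 were above background in papilloma and none of the 9 tested passed. Ccrl2, an atypical receptor that binds chemerin and does not signal, stood at 6.03 and 6.98 on the GOF arrays, against 3.55 and 2.79 on the controls (3.34, SE 0.82, limma adjusted p = 0.103). Ackr4, a scavenging receptor for Ccl19, Ccl21 and Ccl25, stood at 2.95 and 3.22 on the GOF arrays, against 4.34 and 4.38 on the controls (-1.28, SE 0.24, adjusted p = 0.0580). CXCR5 and CX3CR1, the receptors of Cxcl13 and Cx3cl1, were at background by this rule in both comparisons, as were the genes of CCR1, CCR2 and CXCR6. Pf4, a platelet chemokine whose symbol falls outside the naming pattern, stood at 5.50 and 7.20 on the GOF arrays, against 2.89 and 3.29 on the controls (3.26, SE 0.64, adjusted p = 0.0625). Ppbp, another platelet chemokine outside the pattern, was at background, at 2.98 and 2.36 on the GOF arrays and 2.60 and 2.38 on the controls.

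Many inflammatory ligands are induced through the transcription factor NF-kappaB by cytokines such as interleukin 1 and TNF. Of 14 such inducers and pathway genes measured, 11 were above background in papilloma and none of the 12 tested passed. Il1b stood at 5.40 and 7.20 on the GOF arrays, against 3.19 and 3.21 on control papilloma arrays (3.10, SE 0.88, limma adjusted p = 0.135). Il1a, the keratinocyte form, stood at 4.62 and 4.59 on the GOF arrays, against 5.78 and 5.79 on the controls (-1.18, SE 0.25, adjusted p = 0.0752). The inhibitor gene Nfkbia differed by -0.02, and the subunit gene Rela by -1.03 (adjusted p = 0.0981).

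With loss of Nr2f2 in carcinoma, no chemokine ligand passed the threshold. By limma 0 of 30 members tested passed, where 2 of 12061 genes (0.0166%) did. At an unadjusted p under 0.05 stood 8 members (26.7% of those tested, against 14.4% of all genes tested), as did 8 in papilloma (26.7% against 17.9%). Over all 34 members, none was at least 1.5-fold higher in all 4 array pairs (1.16% of all genes) and 3 were lower (8.82%, against 1.21%): Ccl6, Ccl8 and Ccl11, the last below background on all 4 arrays. Groups did not overlap for 17 members (50%, against 41.3% of all genes). The median log2 fold change was -0.07 over the 34 members and -0.002 over all genes.

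Cxcl13 was lower on the LOF arrays, at 5.88 and 5.93, against 6.45 and 7.22 on control carcinoma arrays. Both LOF arrays lay below both controls, with control replicate 2 the highest (-0.94, SE 0.26, limma adjusted p = 0.209). Ccl21b stood at 5.16 and 5.36 on the LOF arrays, against 5.68 and 6.65 on the controls, in the same arrangement (-0.90, SE 0.35, adjusted p = 0.317). Ccl27a stood at 7.18 and 5.82 on the LOF arrays, which lay on either side of the controls at 6.61 and 6.56 (-0.08, SE 0.39). Cx3cl1 stood at 8.86 and 8.78 on the LOF arrays and 8.97 and 8.87 on the controls (-0.10, SE 0.17).

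Among the myeloid attractants, Ccl6 lay at background on the LOF arrays, at 4.95 and 4.91, against 5.54 and 6.99 on control carcinoma arrays. The difference was at least 2.44-fold (-1.33, SE 0.43, limma adjusted p = 0.244). Against control carcinoma replicate 2 alone it was -2.06. Ccl9 stood at 5.25 and 4.99 on the LOF arrays, against 5.68 and 6.67 on the controls (-1.06, SE 0.39, adjusted p = 0.291). Ccl8 stood at 5.38 and 4.81 on the LOF arrays, against 5.98 and 6.35 on the controls (-1.08, SE 0.48, adjusted p = 0.369). All 3 were highest on control carcinoma replicate 2, the array highest on every marker list but the keratinocyte one. A link to any list was not tested. Ccl3 had the widest gap between the controls of any ligand, at 5.50 and 5.84 on the LOF arrays and 4.37 and 7.20 on the controls, and its log2 fold change of -0.11 became 1.30 without control carcinoma replicate 2 (adjusted p = 0.312).

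Ccl2 had higher values on the LOF arrays, at 9.39 and 7.91, against 7.62 and 6.99 on control carcinoma arrays. The groups did not overlap, yet the LOF arrays lay far apart (1.35, SE 0.51, limma adjusted p = 0.310). The neutrophil attractant Cxcl1 stood at 10.48 and 10.22 on the LOF arrays, against 10.05 and 9.04 on the controls (0.81, SE 0.31, adjusted p = 0.314). Cxcl2 stood at 11.54 and 10.92 on the LOF arrays and 10.89 and 11.57 on the controls, overlapping fully, and Cxcl5 at 7.24 and 6.30 on the LOF arrays and 6.08 and 7.13 on the controls.

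The interferon-induced pair Cxcl9 and Cxcl10 differed more between the LOF arrays than between the groups. Cxcl10 stood at 8.64 and 5.84 on the LOF arrays, against 5.55 and 6.10 on control carcinoma arrays (1.41, SE 0.87, limma adjusted p = 0.514). Cxcl9 stood at 8.36 and 3.84 on the LOF arrays, against 5.58 and 4.99 on the controls (0.82, SE 1.30, adjusted p = 0.854). LOF replicate 1 was high on both genes, and without it the Cxcl9 difference turned to -1.44.

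Of the epithelial ligands, Ccl20 stood at 6.47 and 5.51 on the LOF arrays, against 5.25 and 5.25 on the controls (0.74, SE 0.30, limma adjusted p = 0.328). Ccl25, a CCR9 ligand, stood at 6.50 and 5.67 on the LOF arrays, against 5.64 and 5.51 on the controls (0.51, adjusted p = 0.447). Both were highest on LOF replicate 1. Ccl28, a mucosal ligand of CCR10, differed by 0.06. Cxcl14 stood at 8.19 and 9.36 on the LOF arrays and 9.11 and 9.68 on the controls (-0.62, SE 0.38, adjusted p = 0.520), and Cxcl16 differed by 0.26.

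**Figure D3:**
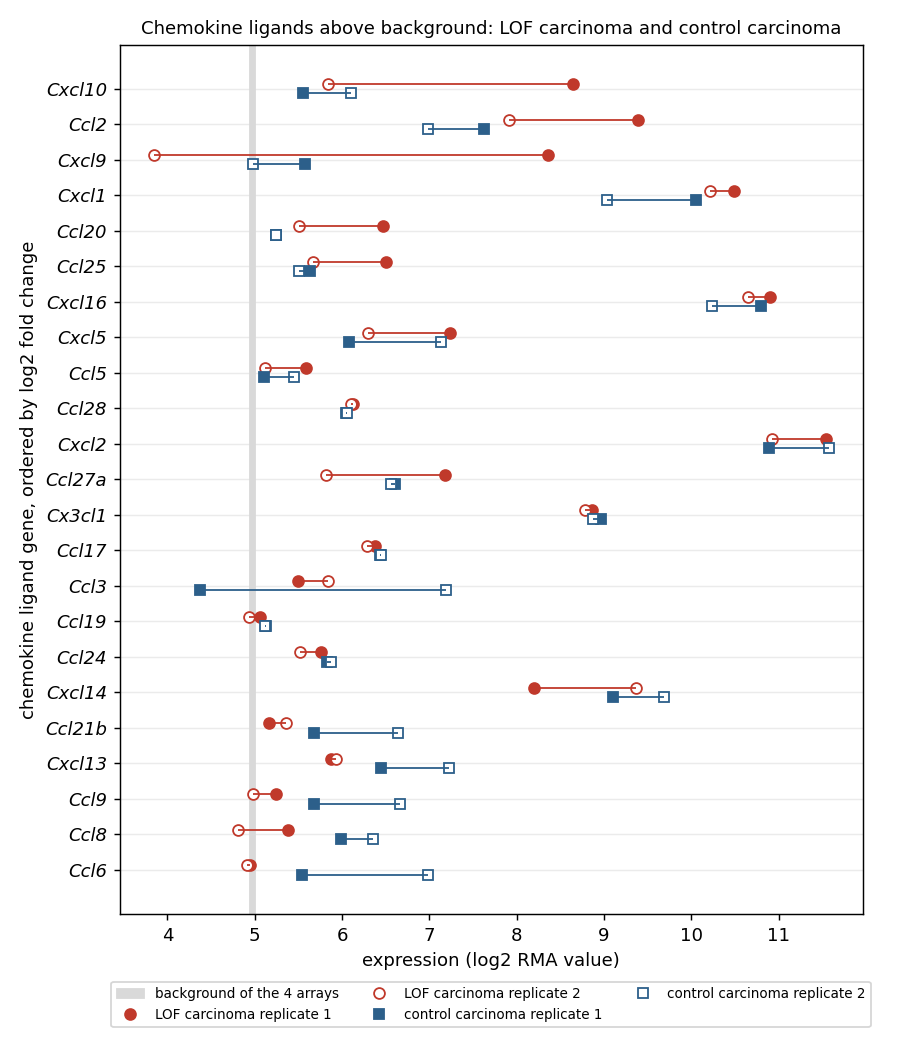
Log2 RMA values (horizontal axis) of the 23 members above background in carcinoma, ordered by log2 fold change, with circles for LOF arrays, squares for control arrays, filled for replicate 1 and open for replicate 2, and a grey band for the background of the arrays. The Cxcl9 values of the LOF arrays, 8.36 and 3.84, lie on either side of both controls, and no member passed the threshold.

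The receptors gave no call in carcinoma, where 6 of 18 were above background. Cxcr3, the receptor of Cxcl9 and Cxcl10, was at background on the LOF arrays, at 4.73 and 3.89, against 7.34 and 6.01 on control carcinoma arrays, at least 3.25-fold lower (-2.36, SE 0.45, limma adjusted p = 0.134). Cxcr2, the neutrophil receptor, stood at 5.04 and 4.73 on the LOF arrays, against 6.34 and 5.54 on the controls (-1.05, adjusted p = 0.307). None of the 12 inducers tested passed, with Csf3, the neutrophil growth factor gene, at 8.21 and 7.74 on the LOF arrays, against 6.73 and 5.99 on the controls (1.62, SE 0.33, adjusted p = 0.138). Tnf stood at 9.03 and 8.98 on the LOF arrays and 8.36 and 9.15 on the controls. Ppbp stood at 10.27 and 8.86 on the LOF arrays and 9.71 and 11.11 on the controls, with overlap (-0.84, SE 0.58, limma adjusted p = 0.561).

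Gain and loss were set side by side for the 20 members above background in both comparisons, which share no array. Positive in GOF papilloma and negative in LOF carcinoma were 9 members, among them Cxcl13 (3.22 and -0.94), Ccl21b (2.34 and -0.90), Ccl8 (1.83 and -1.08), Ccl6 (0.77 and -1.33) and Ccl9 (0.70 and -1.06). The opposite arrangement held for 4 members, Cxcl9 (-2.20 and 0.82), Cxcl10 (-1.68 and 1.41), Ccl20 and Cxcl16. Opposite signs were thus seen in 65% of the members and in 46.1% of the 9473 genes above background in both comparisons. Ccl27a, Cx3cl1 and Cxcl14 were negative in both. The effects were not tested against each other, and several of these values lie within 1 SE of 0.

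**Figure D4:**
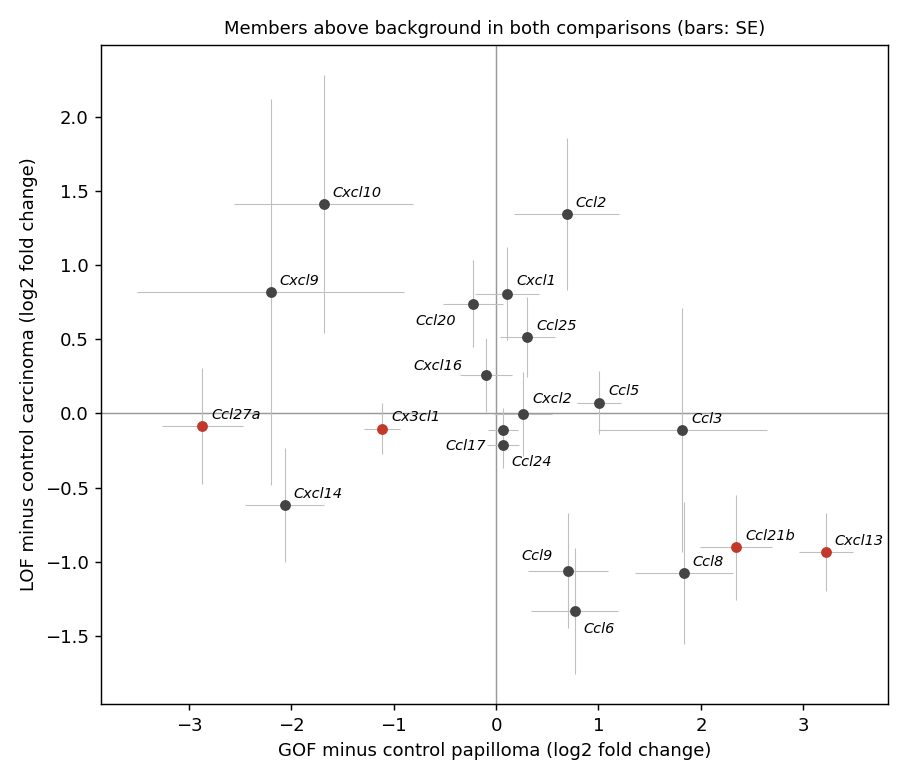
Log2 fold change of GOF over control papilloma (horizontal axis) and of LOF over control carcinoma (vertical axis) for the 20 members above background in both, with bars of 1 SE of the limma fit and red points for the 4 members past the threshold in papilloma. Cxcl13 (3.22 and -0.94) and Ccl21b (2.34 and -0.90) lie at the lower right, and Ccl27a (-2.87 and -0.08) at the far left near 0 on the vertical axis.

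The members at background completed the family. Above background in papilloma but not in carcinoma by this rule were Ccl1, Ccl4, Ccl11, Cxcl11 and Cxcl12, and in carcinoma but not in papilloma Ccl19, Ccl28 and Cxcl5. In neither were 6 members: Ccl7, Ccl12, Ccl22, Cxcl15, Cxcl17 and the lymphocyte chemokine Xcl1, of which Ccl12, Ccl22, Cxcl17 and Xcl1 exceeded background on no array and were not tested. Nearest the limit in papilloma, Ccl1 lay just inside through its controls at 3.28 and 3.49, with GOF arrays at 3.04 and 3.03, and Ccl7 just outside at 3.30 and 3.86 on the GOF arrays and 3.02 and 3.08 on the controls. In carcinoma Cxcl9 lay just inside through its second control array, 4.99 against a background of 4.96, and Cxcl15 just outside at 4.91 and 4.96 on the LOF arrays and 4.69 and 4.77 on the controls.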

How the data were processed

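Expression was measured in 8 samples on 1-colour arrays. Per the labels and the submitters' processing notes, which name RMA and affy without versions, the authors deposited 1 table of log2 values normalized with RMA. Array medians and decimals differ between the tumour types, which were treated as normalized separately. Of 45141 probe sets, 104 were Affymetrix controls, 28898 had 1 gene symbol, 551 several and 15588 none. Symbols come from the platform annotation, and all 34 members matched the RefSeq table (GRCm38.p6) by Entrez number.

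Genes above background on at least 2 arrays were fitted with limma 3.58.1 in R 4.3.3 (lmFit, eBayes), with 1 mean per group, a spread shared over 8 arrays (4 residual and 2.92 prior degrees of freedom) and Benjamini-Hochberg adjustment over 12061 genes at 0.05. An exact permutation test of 2 arrays against 2 cannot go below p = 0.333. Where the dimmer group was at background, the fold is a lower bound against the higher of its value and the background. Alternatives changed the filter, normalization, probe set rule, variance prior, arrays fitted and replicate block, or left out single arrays. The fit was tested on simulated data. Replicates correlated at 0.980 to 0.991, and the number of arrays limits the precision. Members were named where above background in a comparison. The members and lists were chosen with earlier results of these data known.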

Additional observations from a re-analysis of the deposited data

How the results depend on the processing

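The 4 chemokine ligands called in papilloma, all of which kept their direction, became 2 without _s_at and _x_at probe sets (Ccl21b and Ccl27a have such probe sets), 1 with the replicate block and 0 to 4 when single arrays were left out; the other alternatives gave 3 to 6, not always of the same genes: with the 4 papilloma arrays alone Cx3cl1 was lost and Cxcl14 gained. Without the filter Ccl21b missed the threshold (adjusted p = 0.0545), as did Ccl27a and Cx3cl1 with the mean of probe sets (0.0585 and 0.0669). Over all genes in papilloma the 184 calls became 115 without the filter on dim genes, 37 with the replicate block and 2 to 307 when single arrays were left out (2 without either GOF array, 98 and 13 without control papilloma replicates 1 and 2, 72 without either LOF array, 307 without either control carcinoma array). In carcinoma the 2 calls over all genes became 1 with the stricter filter, 5 with a trended and robust prior, 0 with averaged probe sets, 0 with the 4 carcinoma arrays alone, 0 with the replicate block, and 0 to 121 when single arrays were left out, and the count of ligands was 0 to 1. The most calls came without control carcinoma replicate 1, a fit that leaves control replicate 2 alone in its group. That array was the highest carcinoma array on every marker list but the keratinocyte one. Nearly all of those calls were lower in LOF, and the cause was not tested. Replicate numbers share no stated source, and same-numbered arrays deviated together with a correlation of -0.01 in papilloma and 0.12 in carcinoma. Same-numbered arrays also differed in Eif2s3y, at 6.85 and 2.56 on replicate 1 of GOF and control papilloma. In carcinoma replicate 1 stood at 8.62 in LOF and 3.79 in control. The replicate block thus joined arrays unlike in sex-linked transcripts, and a pairing by those transcripts was not fitted.

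Within each comparison, signs turned only for members not called in it. With single arrays left out, papilloma log2 fold changes ran from -0.041 to 0.17 for Ccl17 (negative without control replicate 2), from -0.024 to 0.15 for Ccl24 (negative without GOF replicate 1) and from -0.34 to 0.14 for Cxcl16 (positive without control replicate 2). In carcinoma they ran from -0.77 to 0.60 for Ccl27a, from -1.53 to 1.30 for Ccl3, from -0.16 to 0.31 for Ccl5, from -0.027 to 0.54 for Cxcl16, from -0.35 to 0.34 for Cxcl2, from -0.37 to 0.69 for Cxcl5 and from -1.44 to 3.08 for Cxcl9. With arrays centred on their medians Cxcl2 was at 0.027.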

Other observations

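The gap in Cxcl9 between the 2 LOF carcinoma arrays, 4.52 on the log2 scale, ranked 2 of 17097 genes, for which the median gap was 0.14. Ranked 1 and 3 were the Y-linked gene Eif2s3y (8.62 and 4.0 on the LOF arrays, 3.79 and 7.45 on control carcinoma arrays) and the X-inactivation transcript Xist (4.25 and 8.67 on the LOF arrays, 8.78 and 6.51 on the controls), so both carcinoma groups were mixed in sex-linked transcripts. Of the next genes, Iigp1, which encodes an interferon-inducible GTPase, stood at 7.26 and 3.57 on the LOF arrays and 3.82 and 4.82 on control carcinoma arrays. Tgtp1, of the same class, stood at 6.93 and 3.46 on the LOF arrays and 4.07 and 3.82 on the controls. Igtp, another of that class, stood at 7.73 and 4.80 on the LOF arrays and 5.91 and 6.13 on the controls, and the immunoproteasome gene Psmb8 at 9.87 and 7.08 on the LOF arrays and 8.50 and 8.26 on the controls. Cxcl10 ranked 19 by the same measure. Rtp4, which ranked 12, stood at 7.35 and 4.37 on the LOF arrays and 6.41 and 7.88 on the controls. There LOF replicate 1 lay between the controls. Other genes of the 25 were higher on LOF replicate 2, such as Rhox5 (4.92 and 8.39 on the LOF arrays) and Slc15a2 (4.03 and 7.48). All these genes were chosen after their values were seen, among the 25 with the largest gaps, and no test was made.

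In control carcinoma the largest gap among the ligands was that of Ccl3, 2.83 on the log2 scale, which ranked 35 of 17097 genes. In GOF papilloma it was that of Ccl8, 1.23, which ranked 51.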
